A study of Mus musculus with 2 samples.

Results

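The genes described here encode enzymes that add sulfate to steroids and related small molecules, remove it, or convert steroids by oxidation and reduction. They were chosen by name, with earlier results of these data known: Sult1a1, Akr1c14, Hsd17b4, Hsd17b10, Srd5a3, Hsd11b1, Hsd17b12, Hsd17b7 and Sts. Of these 9 genes, 8 had probe sets that name them alone, among 18193 named genes on the array, and Sts was not analysed here. Sult1a1 is the sole conjugating enzyme among the 8, and the others oxidise or reduce their substrates.

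The T+E2 cells were mouse urogenital sinus mesenchyme (UGM) cells given testosterone (12 nM) together with estrogen (120 pM), named estradiol-17 beta in the labels. The untreated cells received the same medium without the hormones, RPMI 1640 with 5% dextran charcoal-stripped serum, from which most steroids are removed, and 5 µg/ml of the antibiotic Plasmocin. Both cultures came from male C57BL/6 mice at day 16 and were kept for 72 h, although the sample titles say 24 h. A confluency of 80% is recorded for both cultures, whereas the descriptions call the cells nearly confluent before T+E2 and confluent before the untreated culture. There was 1 array for each condition, so no difference below has a replicate check or a p-value, and the effects of the 2 hormones cannot be told apart.

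A sulfotransferase moves sulfate from the donor PAPS (3'-phosphoadenosine 5'-phosphosulfate) to a hydroxyl group, and a sulfated steroid no longer binds its receptor until a sulfatase removes the sulfate. Hydroxysteroid dehydrogenases interconvert hydroxyl and keto groups and so switch androgens, estrogens and glucocorticoids between more and less active forms. In the urogenital sinus the mesenchyme carries the androgen receptor and converts testosterone to dihydrotestosterone, which drives prostate budding. Several enzymes of these families have main substrates that are not steroids, among them fatty acyl-CoAs and the dolichol precursor polyprenol.

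All 8 genes reached the floor (a log2 intensity of 5, an intensity of 32) on both arrays, and 10267 named genes did so on at least 1 array and are called measured. Intensities are GCRMA values, and differences are log2 of T+E2 minus log2 of untreated. A gene was given the value of its probe set with the highest mean. With T+E2, Sult1a1 exceeded its untreated level by 2-fold or more, Akr1c14 was lower by 2-fold or more, and the other 6 differed by less. Over all measured genes the corresponding shares were 4.96% higher, 4.01% lower and 8.97% in either direction, so 1 gene of 8 in each direction is not read as a property of the set. The median difference of the 8 was -0.23, with 3 above 0 and 5 below, against a median of 0.07 over all measured genes. It was -0.0826 when all probe sets of each gene were averaged and -0.0261 with probe sets of plain _at type, and the sign of Hsd17b12 is not settled.

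**Figure D1:**
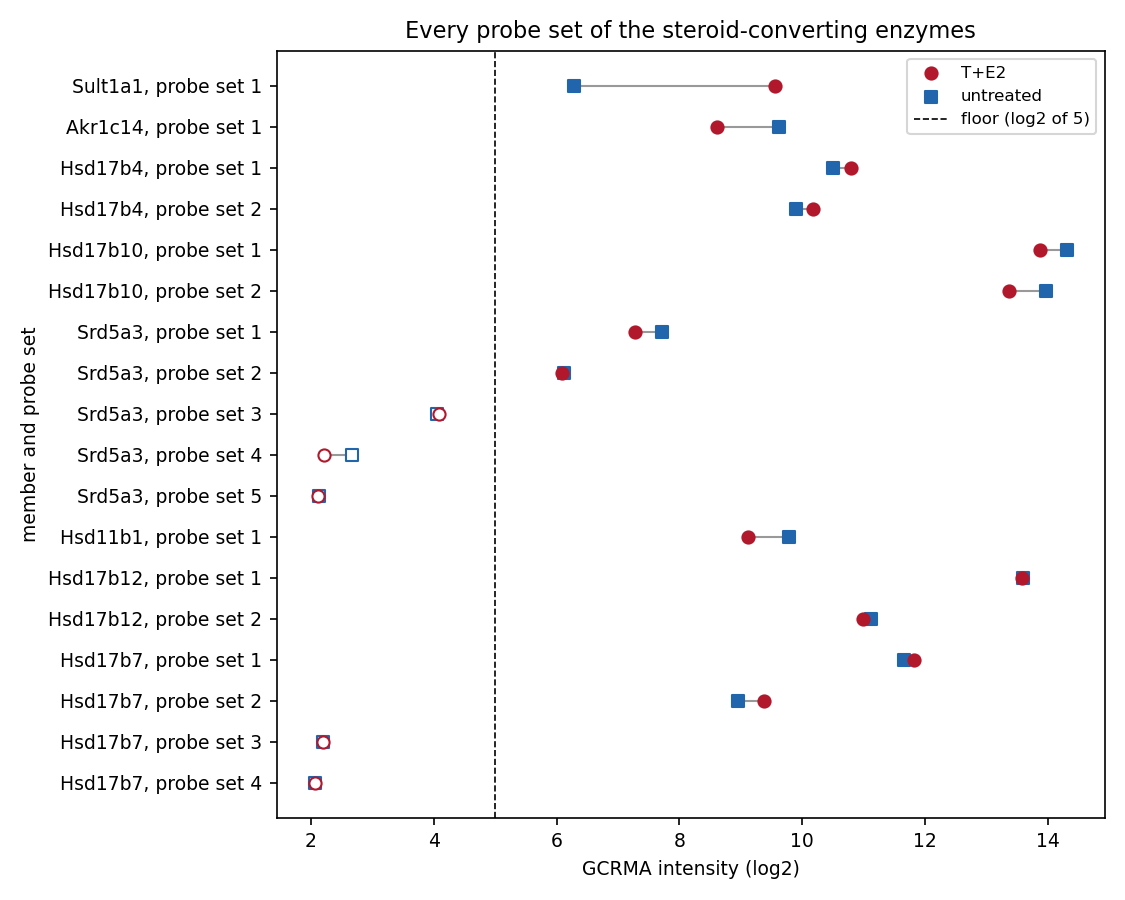
Log2 GCRMA intensity of each of the 18 probe sets of the 8 genes, numbered within a gene by mean level, with T+E2 as circles and untreated as squares. Open symbols mark the 5 probe sets under the floor (dashed line) on both arrays. Sult1a1 has the widest gap, 9.56 with T+E2 against 6.29 in untreated cells.

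The sulfotransferase gene Sult1a1 stood far from the other members. Its product sulfates phenolic compounds, including estrogens and thyroid hormones. The intensity was 752 with T+E2 and 78.0 in untreated cells, a 9.64-fold higher value (log2 difference 3.27). It ranked 8 from the top among 10267 measured genes. Measured genes within 0.5 of its mean log2 level (1072 genes) had differences from -1.06 at the 5th percentile to 1.20 at the 95th, and Sult1a1 lay outside that range. The gene has 1 probe set on the array, so no second probe set bears on the value.

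Akr1c14, whose product is an aldo-keto reductase that reduces the 3-keto group of steroids such as dihydrotestosterone, differed in the other direction. Its intensity was 393 with T+E2 and 791 in untreated cells, a log2 difference of -1.01. The array held 1 probe set for it. The value sits at the edge of the 2-fold threshold: 8.72% of measured genes differed at least as much in either direction, and the 5th percentile of the 1437 genes of like level was -1.03. Centring the arrays on the hybridization controls put it at -0.96 and removing a trend with level put it at -0.9999, so the 2-fold call is lost under both.

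The promoters of these 2 genes are shown because they carry the 2 differences above, with Hsd17b7 beside them as a member that, like Sult1a1, holds the motif but lay under 2-fold. The sequences are RefSeq's, build GRCm38.p6, from 250 bases before to 50 after the annotated start, written 5′ to 3′ on the gene's strand. Capitals mark AGAACA and its reverse complement TGTTCT, the half-site that the androgen, glucocorticoid and progesterone receptors bind as a pair.
Sult1a1, chr7:126676369-126676668, minus strand: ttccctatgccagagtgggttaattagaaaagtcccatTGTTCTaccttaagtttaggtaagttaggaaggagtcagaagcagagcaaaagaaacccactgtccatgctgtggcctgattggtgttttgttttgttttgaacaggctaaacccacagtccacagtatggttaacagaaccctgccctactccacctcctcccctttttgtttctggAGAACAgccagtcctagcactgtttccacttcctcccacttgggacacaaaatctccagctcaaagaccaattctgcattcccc
Akr1c14, chr13:4059341-4059640, plus strand: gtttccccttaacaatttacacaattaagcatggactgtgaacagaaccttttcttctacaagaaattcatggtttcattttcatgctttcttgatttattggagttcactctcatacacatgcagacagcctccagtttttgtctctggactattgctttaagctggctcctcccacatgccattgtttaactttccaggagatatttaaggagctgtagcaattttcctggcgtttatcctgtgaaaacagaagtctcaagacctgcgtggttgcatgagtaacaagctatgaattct
Hsd17b7, chr1:169969156-169969455, minus strand: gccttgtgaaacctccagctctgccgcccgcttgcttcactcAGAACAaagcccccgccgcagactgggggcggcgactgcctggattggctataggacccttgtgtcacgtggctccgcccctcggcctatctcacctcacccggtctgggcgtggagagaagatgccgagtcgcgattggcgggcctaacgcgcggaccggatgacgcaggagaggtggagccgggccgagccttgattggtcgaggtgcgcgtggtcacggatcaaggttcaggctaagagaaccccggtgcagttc

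Promoters were matched for 7 of the 8 genes. Sult1a1 held 2 copies of the half-site, TGTTCT from 212 to 207 bases before the start and AGAACA from 34 to 29 bases before it. These 2 copies lie far apart in the window and are not an adjacent pair. Hsd17b7 held 1 copy, from 208 to 203 bases before the start, and the other 5 matched promoters held none. Among all 32851 promoters in the table, 19.0% held at least 1 copy and 2.54% at least 2. The estrogen receptor half-site GGTCA (reverse complement TGACC) occurred once in Hsd17b7 and in no other matched promoter, and in 40.5% of all promoters. A match describes the letters of these windows and is not evidence of binding.

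**Figure D2:**
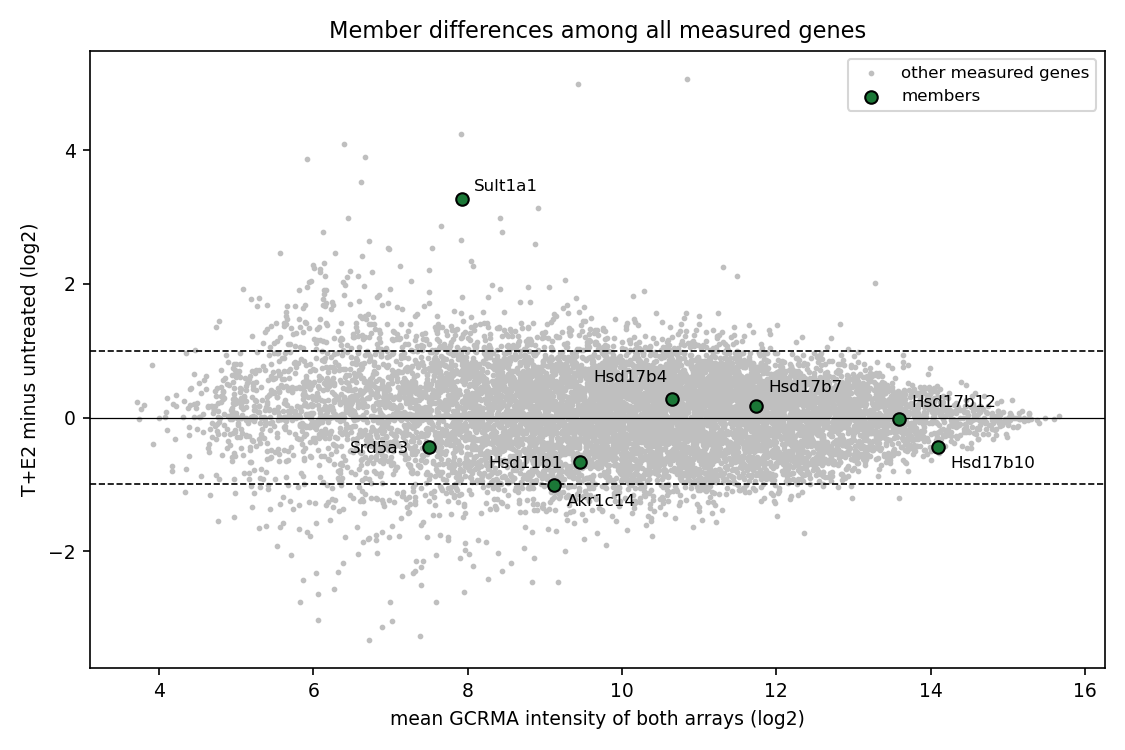
Difference (T+E2 minus untreated, log2, vertical axis) against the mean log2 intensity of both arrays (horizontal axis) for 10267 measured genes (grey), with the 8 members in green and dashed lines at 2-fold. Sult1a1 lies at 3.27, Akr1c14 on the lower line at -1.01, and the other 6 inside both lines.

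The gene of the glucocorticoid-activating enzyme, Hsd11b1, was lower with T+E2 by less than 2-fold. Its product works in the endoplasmic reticulum, where it makes corticosterone from the inactive 11-keto form. The intensity was 557 with T+E2 and 879 in untreated cells (log2 difference -0.66), from 1 probe set. Among measured genes, 25.7% differed at least as much. H6pd, which encodes the enzyme that supplies Hsd11b1 with NADPH inside the endoplasmic reticulum, lay on the opposite side, at 1236 with T+E2 and 516 in untreated cells (2.39-fold higher, log2 difference 1.26). Slc37a4, which carries glucose 6-phosphate into that compartment, was at 241 with T+E2 and 204 in untreated cells (0.24). Hsd11b2, the gene of the opposing inactivating enzyme, was under the floor on both arrays.

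Of the hydroxysteroid dehydrogenases that mainly reduce their substrates, Hsd17b7 and Hsd17b12 differed little. Hsd17b7 converts estrone to estradiol and also acts in cholesterol synthesis. Its first probe set gave 3621 with T+E2 and 3219 in untreated cells (0.17), and its second gave 667 with T+E2 and 498 in untreated cells (0.42). Both lay above 0, and the remaining 2 probe sets were under the floor on both arrays. Hsd17b12 encodes the ketoacyl-CoA reductase of fatty acid elongation, which can also reduce estrone. Its 2 probe sets gave 12183 with T+E2 against 12405 in untreated cells (-0.03) and 2026 with T+E2 against 2232 in untreated cells (-0.14). The sign of the first is not settled, since it turned to 0.02 with centring on the hybridization controls and to 0.03 with the trend with level removed.

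The dehydrogenases that mainly oxidise lay on opposite sides of 0. Hsd17b4 encodes the peroxisomal multifunctional enzyme of fatty acid oxidation, which also oxidises estradiol to estrone. Its 2 probe sets agreed closely, at 1767 with T+E2 against 1458 in untreated cells (0.28) and 1160.0 with T+E2 against 960.1 in untreated cells (0.27). Hsd17b10 encodes a mitochondrial dehydrogenase of isoleucine breakdown and steroid oxidation that is also a subunit of mitochondrial RNase P. Its 2 probe sets gave 15026 with T+E2 against 20366 in untreated cells (-0.44) and 10568 with T+E2 against 16132 in untreated cells (-0.61). The first of these lay near the 5th percentile of the 357 genes of like level (-0.47), where differences are narrow. Trmt10c, the gene of another subunit of that RNase P, was at 386 with T+E2 and 555 in untreated cells (-0.52).

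Srd5a3 belongs to the steroid reductase family by sequence, and its product reduces polyprenol to dolichol for protein glycosylation. The leading probe set gave 155 with T+E2 and 209.6 in untreated cells (-0.43), whereas the second gave 68.3 with T+E2 and 69.6 in untreated cells (-0.03). The other 3 probe sets were under the floor on both arrays. The dolichol pathway genes Dhdds, Nus1 and Dolk differed by 0.01, 0.14 and -0.39. Srd5a1 and Srd5a2 of the same reductase family were not analysed here, so the step from testosterone to dihydrotestosterone is not covered.

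In all, 13 of the 18 probe sets of the members were measured. The 5 genes with more than 1 measured probe set had them on the same side of 0, although for Srd5a3 and Hsd17b12 1 of the differences was within 0.03 of it. The values of Hsd17b4, Hsd17b7 and Hsd17b10 come from probe sets of the _x_at type and that of Srd5a3 from the _s_at type, which the manufacturer marks as sharing probes with other transcripts. With the highest probe set of plain _at type in their place, an alternative chosen after seeing the data, Hsd17b10 stood at -0.61, Srd5a3 at -0.03, Hsd17b4 at 0.27 and Hsd17b7 at 0.42. The 1 probe set of Sult1a1 is of the _a_at type, so that alternative had no plain probe set for it and left its value unchanged. Across the array the signed difference went up with genomic span, with a running median of -0.22 at the span of Hsd17b10 and 0.42 at that of Hsd17b12, and with this trend removed Hsd17b4 stood at 0.04, Hsd17b10 at -0.14 and Hsd17b12 at -0.37, while Sult1a1 stood at 3.39.

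**Figure D3:**
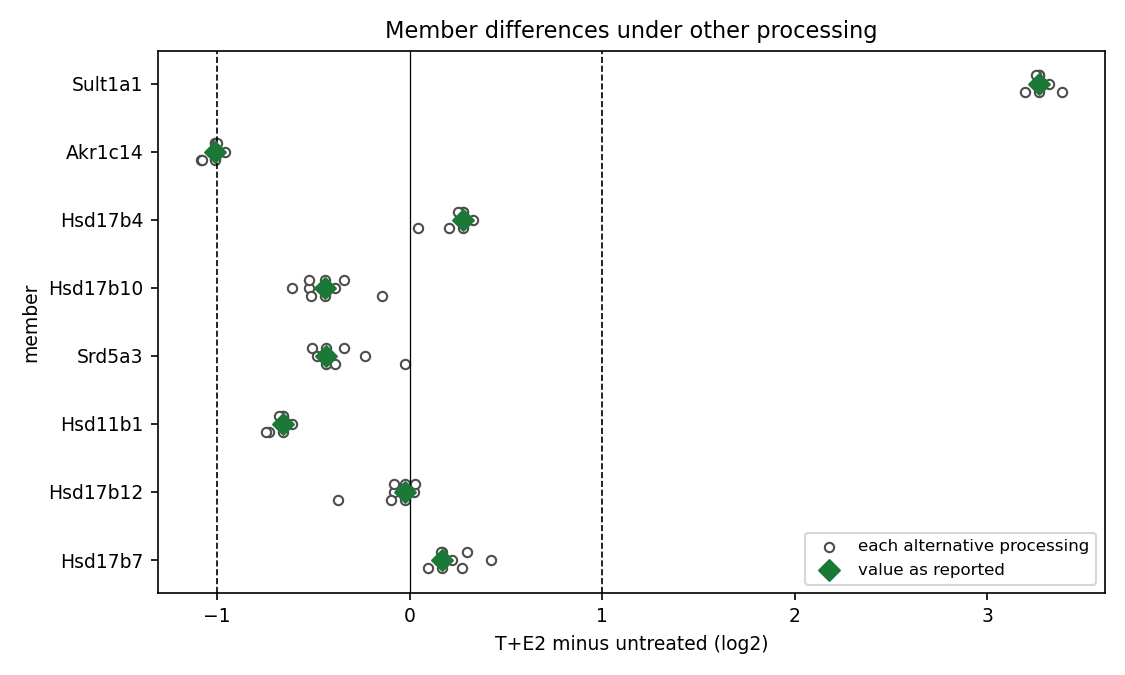
Difference of each of the 8 genes (T+E2 minus untreated, log2) as reported (diamonds) and under each alternative processing (open circles), with dashed lines at 2-fold. Sult1a1 stays between 3.20 and 3.39, Akr1c14 straddles the lower line from -1.08 to -0.96, and Hsd17b12 falls on both sides of 0.

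Relatives of the members were compared in lists of 166 other pathway genes on the array, of which 99 were measured. With T+E2, 4 of these (4.04%) reached 2-fold on the higher side and 6 (6.06%) on the lower side, near the shares of all measured genes, with a median of 0.02. The lowest median belonged to the list of other hydroxysteroid dehydrogenases, aldo-keto reductases and carbonyl reductases. Of its 16 measured genes, 3 were lower by 2-fold or more, against 4.01% of all measured genes, and 0 were higher by that much. In this list 11 genes lay below 0, against 43.7% of all measured genes, and the median was -0.56. Akr1c12, a close relative of Akr1c14, was at 70.8 with T+E2 and 162 in untreated cells (-1.20). Cbr1, which encodes a carbonyl reductase of prostaglandins and quinones, was at 1500 with T+E2 and 3413 in untreated cells (-1.19), and Akr1e1 at 831 with T+E2 and 1859 in untreated cells (-1.16).

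Of 8 other Akr1c genes on the array, Akr1c12 and Akr1c13 were measured and 6 were under the floor. Akr1c13 was at 745 with T+E2 and 1409 in untreated cells (-0.92). Probe sets of near-identical Akr1c genes can detect each other's transcripts, so the values of Akr1c12, Akr1c13 and Akr1c14 may not be fully separate. Of 8 other genes of the Hsd17b family, 5 were under the floor, among them Hsd17b1, Hsd17b2 and Hsd17b3. Those measured were Hsd17b11 (0.44), Hsd17b14 (0.01) and H2-Ke6, also known as Hsd17b8 (-0.70).

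Among the cytosolic sulfotransferase genes on the array, Sult1a1 was the only one over the floor on both arrays. Of 11 others on the array, 10 were under the floor on both arrays, with intensities of at most 7.21 with T+E2 and 6.18 in untreated cells, including Sult1e1, the estrogen sulfotransferase gene. Sult5a1 reached 38.7 with T+E2 and 25.1 in untreated cells, where it was under the floor (at least 0.28). The Golgi tyrosylprotein sulfotransferase gene Tpst2 was at 1441 with T+E2 and 1376 in untreated cells (0.07).

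The list for the sulfate donor covers its supply, transport and turnover, with Bpnt1 and Bpnt2 among its genes. Of its 10 measured genes 8 lay above 0, where 55.8% of all measured genes lay. In this list 0 were higher by 2-fold or more, against 4.96% of all measured genes. By that much 1 was lower, against 4.01% of all measured genes, and the median was 0.21. Papss2, a PAPS synthase gene, was at 1967 with T+E2 and 1370 in untreated cells (0.52), and its 3 measured probe sets lay between 0.52 and 1.03. Its relative Papss1 was at 2022 with T+E2 and 1697 in untreated cells (0.25). The lower gene was Slc35b3, which encodes a Golgi PAPS transporter, at 751 with T+E2 and 1804 in untreated cells (-1.26).

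The sulfatase list had the highest median, 0.45, with 10 of 12 measured genes above 0, against 55.8% of all measured genes. Of the 12, 1 was higher by 2-fold or more, against 4.96% of all measured genes, and 0 were lower by that much. These enzymes act on heparan sulfate and other sulfated substrates rather than on steroids. Sgsh, the gene of a lysosomal heparan sulfatase, was at 309 with T+E2 and 151 in untreated cells (1.03). Sumf1, which activates the sulfatases, was at 7401 with T+E2 and 7314 in untreated cells (0.02), with its 2 probe sets on opposite sides of 0 (-0.22 and 0.02).

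**Figure D4:**
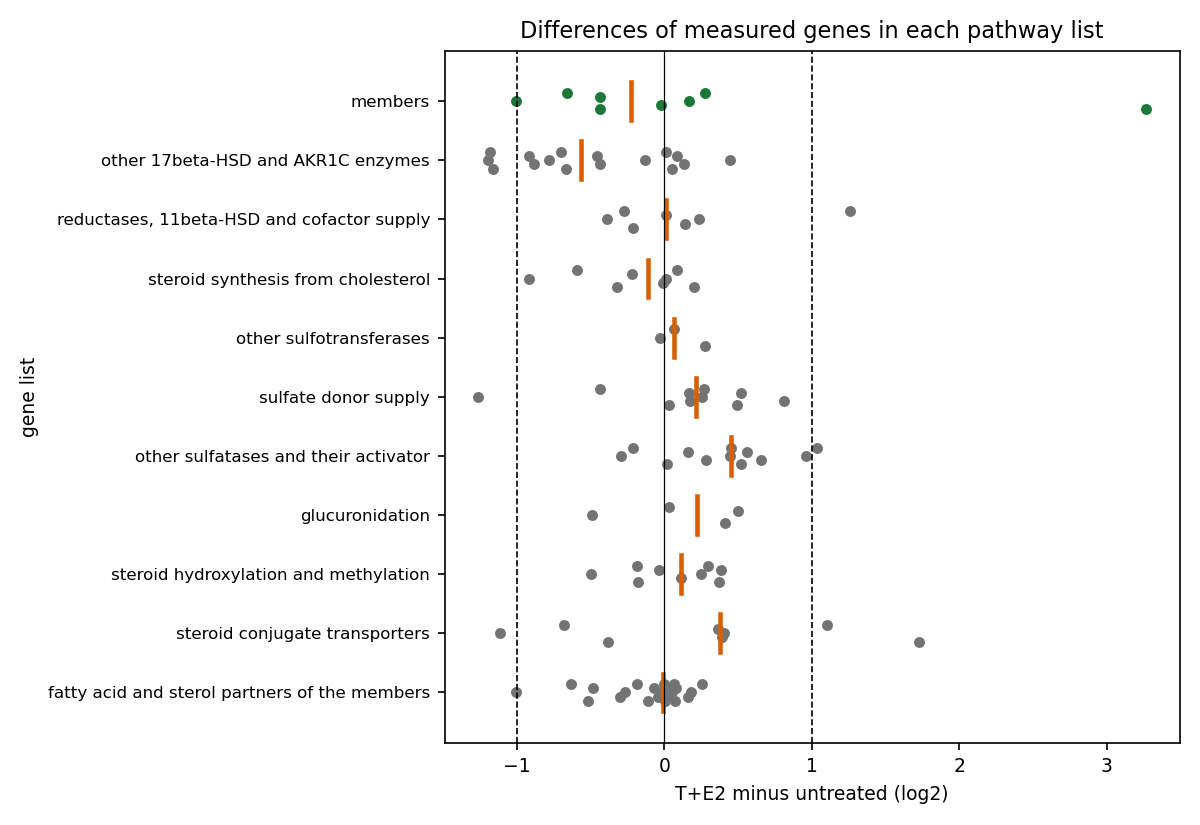
Difference of each measured gene (T+E2 minus untreated, log2) in the set of 8 and in each of 10 pathway lists, 1 point a gene, with the list median as an orange bar and dashed lines at 2-fold. Medians run from -0.56 in the list of other hydroxysteroid dehydrogenases and aldo-keto reductases to 0.45 in the sulfatase list, and Sult1a1 is the single point beyond 3.

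The steps that make steroids from cholesterol were largely not measured. All 5 cytochrome P450 genes of that route on the array, Cyp11a1, Cyp17a1 and Cyp21a1 among them, had intensities of at most 5.19 with T+E2 and 5.06 in untreated cells. Of 8 measured genes in that list none was 2-fold different, against 8.97% of all measured genes, and the median was -0.12. Hsd3b7, which acts in bile acid synthesis, was at 210.0 with T+E2 and 397 in untreated cells (-0.92), and the mitochondrial translocator gene Tspo at 3964 with T+E2 and 5970.4 in untreated cells (-0.59, with 3 probe sets between -1.20 and -0.59).

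Glucuronidation is the other main way of conjugating steroids. All 10 Ugt2 and Ugt3 genes with a value were under the floor, and the Ugt1a genes were not analysed here. Of 14 genes of that list with a value 4 were measured, with a median of 0.22. None of the 4 was 2-fold different, against 8.97% of all measured genes. Ugp2, which makes UDP-glucose, was at 13061 with T+E2 and 18322 in untreated cells (-0.49), and the glucuronidase gene Gusb at 2291 with T+E2 and 1618 in untreated cells (0.50), with its 2 probe sets on opposite sides.

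Carriers of steroid conjugates lay on both sides of 0. Of 8 measured genes, 2 were higher and 1 was lower by 2-fold or more, with a median of 0.38. The shares of all measured genes were 4.96% higher and 4.01% lower. Slc10a6, of the same list, was at 42.3 with T+E2 and 16.5 in untreated cells, where it was under the floor (at least 0.40). The organic anion transporter gene Slco3a1 was at 814 with T+E2 and 246 in untreated cells (1.73), and its 3 probe sets lay between 1.49 and 1.86. The exporter gene Abcc4 was at 662 with T+E2 and 308 in untreated cells (1.11). Abcc5, another exporter gene, was at 1058 with T+E2 and 2293 in untreated cells (-1.12), with 5 of 6 measured probe sets below 0.

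Of 9 measured hydroxylation and methylation genes none was 2-fold different, against 8.97% of all measured genes, and the median was 0.11. Nqo1, a quinone reductase gene, differed by -0.50 and the dioxin receptor gene Ahr by 0.39. Of 22 fatty acid and sterol genes that work beside the members, 1 was lower by 2-fold or more, against 4.01% of all measured genes. In that list 0 were higher by that much, against 4.96% of all measured genes, and the median was -0.01. The lower gene was Echs1, an enoyl-CoA hydratase of mitochondrial fatty acid oxidation, at 1024 with T+E2 and 2060.0 in untreated cells (-1.01).

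The label of the cells was checked with markers. Of 13 mesenchyme markers on the array 8 were measured, including Vim, Col1a1 and Pdgfra, while Fgf10, Hoxa13, Hoxd13, Tcf21 and Thy1 were under the floor. Among those measured, Tbx18 was at 1005 with T+E2 and 496 in untreated cells (1.02). Of 11 epithelial markers 2 were measured, and the summed intensities of all 11 were 583 with T+E2 and 337 in untreated cells. Cdh1 was at 189.9 with T+E2 and 41.4 in untreated cells, and Trp63 at 352 with T+E2 and 255 in untreated cells. Epcam and the keratin genes were under the floor. Of 8 leukocyte markers 2 were measured, and the sums over all 8 were 479 with T+E2 and 1167 in untreated cells. Of the 2 measured, Lyz2 was at 369 with T+E2 and 1065 in untreated cells. The other, Cd14, was at 78.7 with T+E2 and 70.1 in untreated cells. Of 8 endothelial markers 2 were measured, and the sums over all 8 were 1130.4 with T+E2 and 1009 in untreated cells. Tek had 1040.0 with T+E2 and 904 in untreated cells, and Egfl7 had 64.0 with T+E2 and 78.7 in untreated cells. Pecam1 and Cdh5 were under the floor. None of 7 markers of steroidogenic cells and none of 7 of hepatocytes was measured. The part of these markers in the results was not tested, and fewer cells of a type and less RNA per cell cannot be told apart in such cultures.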

How the data were processed

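RNA from 1 untreated and 1 T+E2 culture was hybridised to Affymetrix mouse expression arrays with 45101 probe sets. The authors deposited intensity values on a linear scale made with GCRMA, per the submitters' processing notes, a method that corrects background by probe sequence and quantile-normalizes arrays; its version was not given in the sources used here. Here log2 of each deposited intensity was taken and both arrays were floored at log2 5 before differences were formed. Where 1 array was under the floor, the difference is a lower bound. The number of arrays limits the precision, and no test was possible.

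Genes were assigned to probe sets by the platform annotation, with symbols updated through RefSeq (GRCm38.p6): 34945 named 1 gene, 932 several (left out) and 9160 none. Of 18193 genes, 18145 matched. Python 3.11.15 with pandas 2.3.3 was used.

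The members and lists were chosen with earlier results of these data known. Named in the text were all members and, from each list, up to 4 genes at least 2-fold different or else the 2 largest, plus H6pd, Papss1, Papss2 and Sumf1. Other genes were chosen after their values were seen. Alternatives were other floors, probe set rules, centrings, and the removal of trends with level and genomic span.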

Additional observations from a re-analysis of the deposited data

How the results depend on the processing

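Each result was recomputed under 10 alternatives, 9 planned and 1 (plain _at probe sets) chosen after seeing the data. Sult1a1 stayed at least 2-fold higher in all 10, from 3.20 to 3.39, and the count of members at least 2-fold higher stayed at 1. Its 1 probe set lies over every floor used, so the floor and probe set alternatives could not change its value. The centrings and trend removals shift it by far too little to reach the threshold. Akr1c14 was -0.96 with centring on the hybridization controls and -0.9999 with the trend with level removed, so the count of members at least 2-fold lower was 0 under both; these follow from the shift each applies to a value at the threshold. The median of the members, -0.2303 as reported, was -0.0826 when all probe sets of each gene were averaged, where Srd5a3 was no longer measured, and -0.0261 with plain _at probe sets. Other pathway genes at least 2-fold higher numbered 3 to 5, and those lower 4 to 8. Over all genes, that averaging gave 315 at least 2-fold higher against 509 as reported. With centring on the median, 408 genes were at least 2-fold higher and 520 at least 2-fold lower, against 509 and 412 as reported. The 18 hybridization controls differed by -0.25 to 0.09 (SD 0.12). No paired analysis was possible because each condition has 1 array, and no replicate could be left out.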

Other observations

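The promoters of the members differed in CG dinucleotides, counted after the values had been seen. Sult1a1 had 0 in 300 bases, Akr1c14 had 2 and Hsd11b1 had 6, while the other 4 matched promoters had 15 to 27. Of the 7, the 3 with the fewest CG dinucleotides were also the 3 with the largest differences, by the values as reported. Hsd11b1 (-0.66) and Hsd17b10 come close in that order. The plain _at probe set of Hsd17b10 gave -0.61, and the SD of the hybridization controls was 0.12. Over the array, among measured genes with 1 promoter in the table, 78 of 458 genes with 0 to 6 CG dinucleotides (17.03%) were at least 2-fold different in either direction, and 398 of 5147 genes with 15 or more (7.73%). The bounds of 6 and 15 are the counts of the members Hsd11b1 and Hsd17b10, and genes between the bounds were left out. The median log2 level was 9.19 in the first set and 10.31 in the second, and the part of level in this gap was not tested.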
